A study of Mus musculus with 8 samples.

Results

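The genes described here encode collagens, laminins and integrins, in mouse keratinocytes that carried the v-rasHa oncogene and either lacked or kept Nfkbiz. Members were all genes with a probe set of their own whose symbol begins as a collagen, laminin or integrin name, with a single collagen gene left out by the rule. This gave 33 of the 9294 genes tested: 14 collagens, 5 laminin chains, 11 integrin chains and 3 genes that carry an integrin name but encode no chain (Itgb1bp1, Itgb1bp2 and Itgbl1). The rule used names and signal level, not the difference between genotypes. The first group is Nfkbiz KO v-rasHa, that is, C57BL/6 keratinocytes without Nfkbiz, the gene of the nuclear NF-kB regulator IkBz, 3 days after transduction with v-rasHa (4 arrays). The second is wildtype v-rasHa, C57BL/6 keratinocytes with Nfkbiz intact and otherwise treated alike (4 arrays). Every culture carried the oncogene and grew in regular medium, so these differences are between genotypes under v-rasHa and cannot be set against cells without it. The labels call the samples biological replicates and do not say whether Nfkbiz was deleted in the whole animal or in keratinocytes, nor how many animals gave the cells.

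Basal keratinocytes sit on a basement membrane made of laminins and type IV collagen, and they hold on to it through integrins, heterodimers of an alpha and a beta chain. Hemidesmosomes join the keratins to this membrane through an integrin and the transmembrane collagen XVII, bind laminin outside the cell, and are anchored to the dermis by fibrils of collagen VII. Collagens VI and XVI belong to the connective tissue side, where fibroblasts are a main source, and collagen chains need prolyl hydroxylases and chaperones before they can be secreted.

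RNA was measured on one-colour oligonucleotide arrays, and values are the deposited signals, taken as log2 from their range. Array medians lay between 4.49 and 4.57. Signals of different genes come from different probes and do not rank the genes by amount of RNA. Sums of marker signals mix such probes, and genes of high signal weigh most in them. Differences are Nfkbiz KO minus wildtype, tested with limma over all 9294 genes, and the words rose and fell are kept for a Benjamini-Hochberg adjusted p under 0.05. Over all genes 415 rose and 412 fell, and with each array centred on its median 482 rose and 314 fell. Nfkbiz itself was not analysed here, so the knockout was not checked from these values. The keratinocyte label was checked on 9 marker genes. Krt5, the keratin of basal cells, lay at 13.29 ± 0.06 in Nfkbiz KO arrays and 13.42 ± 0.03 in wildtype arrays (SD, n = 4 each). Its groups did not overlap, as for 15.9% of all genes. Not all markers were strong: Krt15 had a mean of 4.69, near the array medians, and Krt1 and Krt10 had 6.61 and 6.74. None of the 9 markers passed the limma test, beside 8.9% of all genes. Of the 9, 1, Krt5, had an unadjusted p under 0.05, beside 1932 of the 9294 genes tested.

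Of the 33 genes, 5 passed the test (15.2%), where 8.9% of all genes tested did. The rises were in the basement membrane collagen gene Col4a2 and the integrin gene Itgb8, and the falls in Col6a1, Col16a1 and Col17a1. Thus 2 of 33 rose, beside 4.47% of all genes, and 3 of 33 fell, beside 4.43%. The median log2 fold change of the 33 genes was -0.01, the same as over all genes, while the median size regardless of direction was 0.09 against 0.07 over all genes. The changes were small, the largest fall among them 1.41-fold and the largest rise 1.39-fold. Values of the genotypes did not overlap for 7 of 33 members (21.2%), beside 15.9% of all genes. These shares were not tested against each other. All 5 members that passed had a mean log2 signal of 5 or over, which 14 of the 33 reached. At that level or over, 35.7% of members passed, beside 16.0% of all genes. Below it 0 of 19 members passed, beside 2.5% of all genes. These shares were likewise not tested against each other. At low signals the arrays give no measure of whether a transcript was present.

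**Figure D1:**
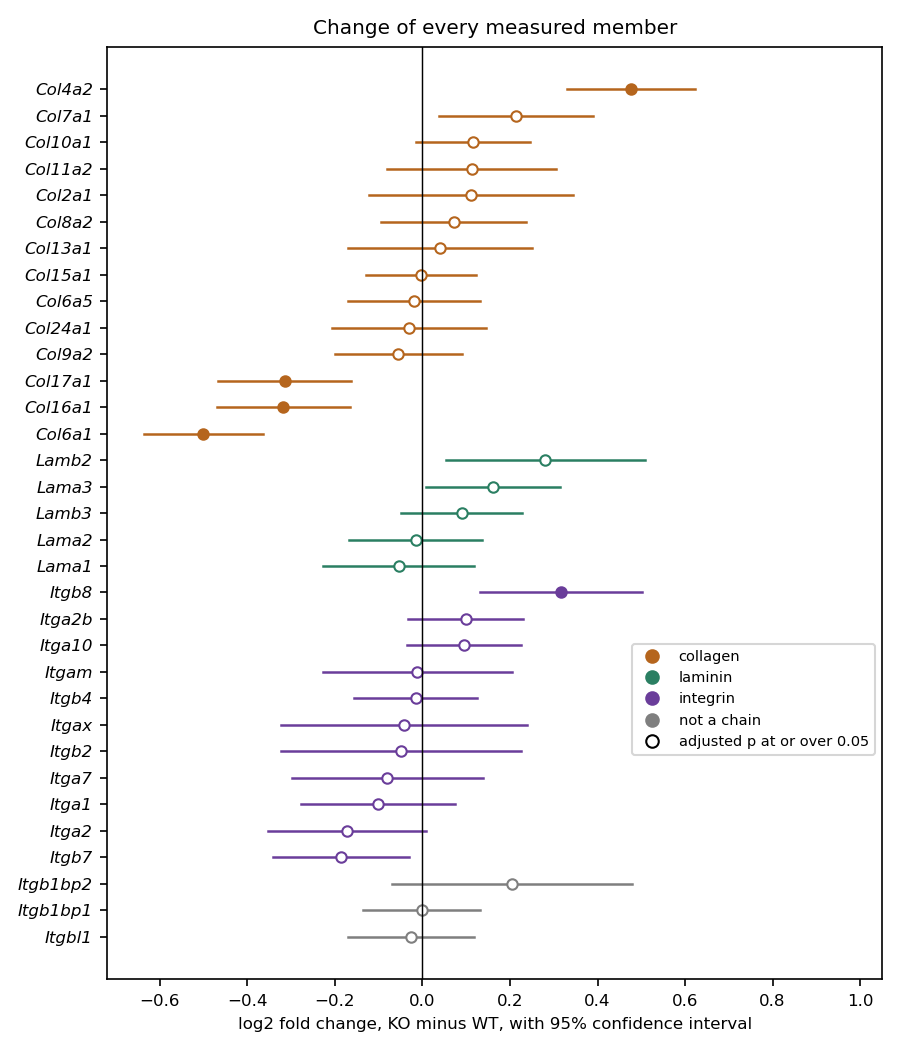
Log2 fold change (Nfkbiz KO minus wildtype) of all 33 genes, with the 95% confidence interval of the limma fit, on the x axis. Filled points mark the 5 genes with an adjusted p under 0.05, of which Col4a2 and Itgb8 lie right of 0 and Col6a1, Col16a1 and Col17a1 left of it.

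Col6a1, which encodes a chain of the beaded-filament collagen VI, had log2 signals of 6.96, 7.14, 7.14 and 7.03 in the Nfkbiz KO arrays, against 7.49, 7.54, 7.58 and 7.66 in the wildtype arrays. Every Nfkbiz KO array was lower than every wildtype array. The log2 fold change was -0.50 ± 0.06 (SE; limma adjusted p = 0.000341). Col16a1, the gene of a fibril-associated collagen of connective tissue, had 7.06, 6.94, 7.12 and 6.96 in the Nfkbiz KO arrays, against 7.24, 7.30, 7.30 and 7.50 in the wildtype arrays. The groups again did not overlap, and wildtype replicate 4 stood highest. Its log2 fold change was -0.32 ± 0.07 (SE; limma adjusted p = 0.0149).

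Several markers of fibroblasts, though not all, were lower in the same arrays. Among 9 measured fibroblast markers, falls were found in 5 (beside 4.43% of all genes) and a rise in 1 (beside 4.47%), and the other 3 did not pass. The markers were listed with earlier results of these data known, so these shares only describe the genes listed. The median log2 fold change was -0.48. Twist2, a transcription factor gene of dermal mesenchyme, fell by 1.02 ± 0.06 (SE) and Dcn, the decorin gene, by 0.97 ± 0.08, whereas the periostin gene Postn rose by 1.47 ± 0.09. The summed linear signal of the 9 markers ran from 1531 to 1653 in Nfkbiz KO arrays and from 1764 to 1861 in wildtype arrays. S100a4 weighs most in this sum, with log2 means of 10.01 in Nfkbiz KO and 9.95 in wildtype arrays, and it did not pass. The mean log2 signal of the 9 markers ran from 5.92 to 6.10 in Nfkbiz KO arrays and from 6.19 to 6.27 in wildtype arrays. No marker was at 0, and the lowest was Fap, with a mean of 3.27, under the lower quartile of each array (3.33 to 3.39). In bulk RNA, fewer cells of a type and less RNA per cell cannot be told apart, and the part of fibroblasts in the falls of Col6a1 and Col16a1 was not tested.

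**Figure D2:**
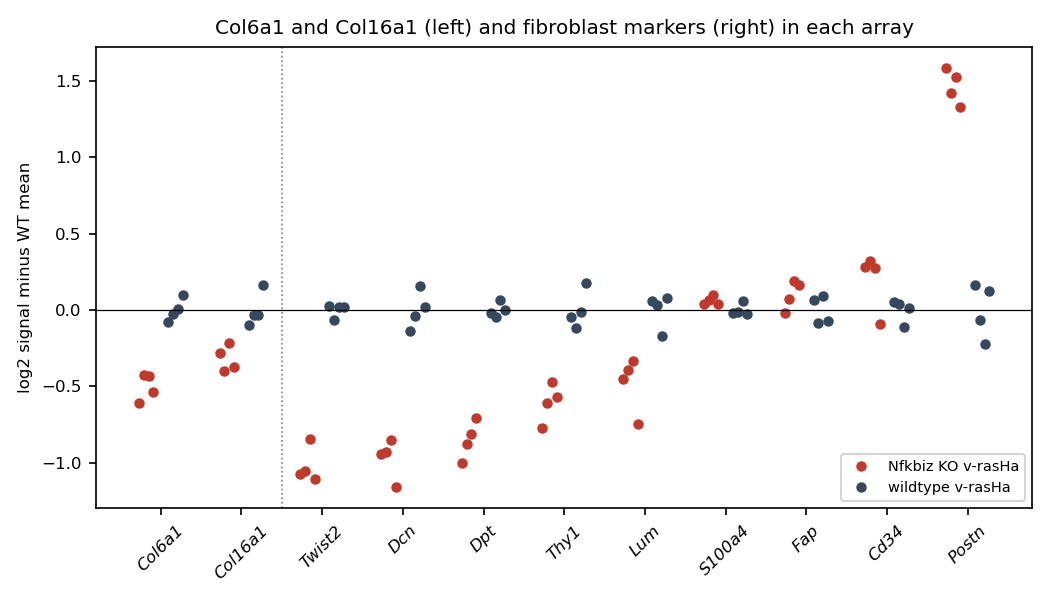
Log2 signal of Col6a1, Col16a1 and 9 fibroblast markers in each array, minus the mean of the 4 wildtype arrays of that gene. Red points are Nfkbiz KO arrays and dark points wildtype arrays. Both collagens and Twist2, Dcn, Dpt, Thy1 and Lum lie below 0 in every Nfkbiz KO array, and Postn lies above 1 in each of them.

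Col4a2 encodes the second chain of the most widespread type IV collagen, the network former of basement membranes. It had log2 signals of 8.65, 8.46, 8.69 and 8.49 in the Nfkbiz KO arrays, against 8.08, 8.05, 8.06 and 8.19 in the wildtype arrays. The lowest Nfkbiz KO value was above the highest wildtype value. The log2 fold change was 0.48 ± 0.07 (SE; limma adjusted p = 0.000841), and between 0.44 and 0.52 with any single array left out. Col4a1, which encodes its partner chain, was not analysed here.

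Col17a1 encodes the transmembrane collagen of the hemidesmosome. Its log2 signals were 10.75, 10.81, 10.78 and 10.57 in the Nfkbiz KO arrays, against 10.94, 11.01, 11.06 and 11.16 in the wildtype arrays. The groups did not overlap, with Nfkbiz KO replicate 4 lowest of all. The log2 fold change was -0.31 ± 0.07 (SE; limma adjusted p = 0.0154), and the adjusted p was 0.0539 with the replicate number as a block.

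Itgb4 and Col7a1, which act in the same attachment, did not pass the test. Itgb4, the beta chain of the hemidesmosomal integrin, had 9.58, 9.65, 9.78 and 9.56 in the Nfkbiz KO arrays, against 9.59, 9.60, 9.74 and 9.71 in the wildtype arrays. The groups overlapped almost completely, with a log2 fold change of -0.02 and a 95% confidence interval of -0.16 to 0.13. Col7a1, the anchoring fibril gene, had 8.69, 8.50, 8.67 and 8.41 in the Nfkbiz KO arrays, against 8.31, 8.29, 8.29 and 8.52 in the wildtype arrays. Wildtype replicate 4 reached into the Nfkbiz KO range. Its log2 fold change was 0.21 ± 0.08 (SE; limma adjusted p = 0.144), with an interval of 0.04 to 0.39, and it passed with an adjusted p of 0.0345 with an intensity trend and robust variance together. Itga6, the alpha chain that pairs with Itgb4, was not analysed here.

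**Figure D3:**
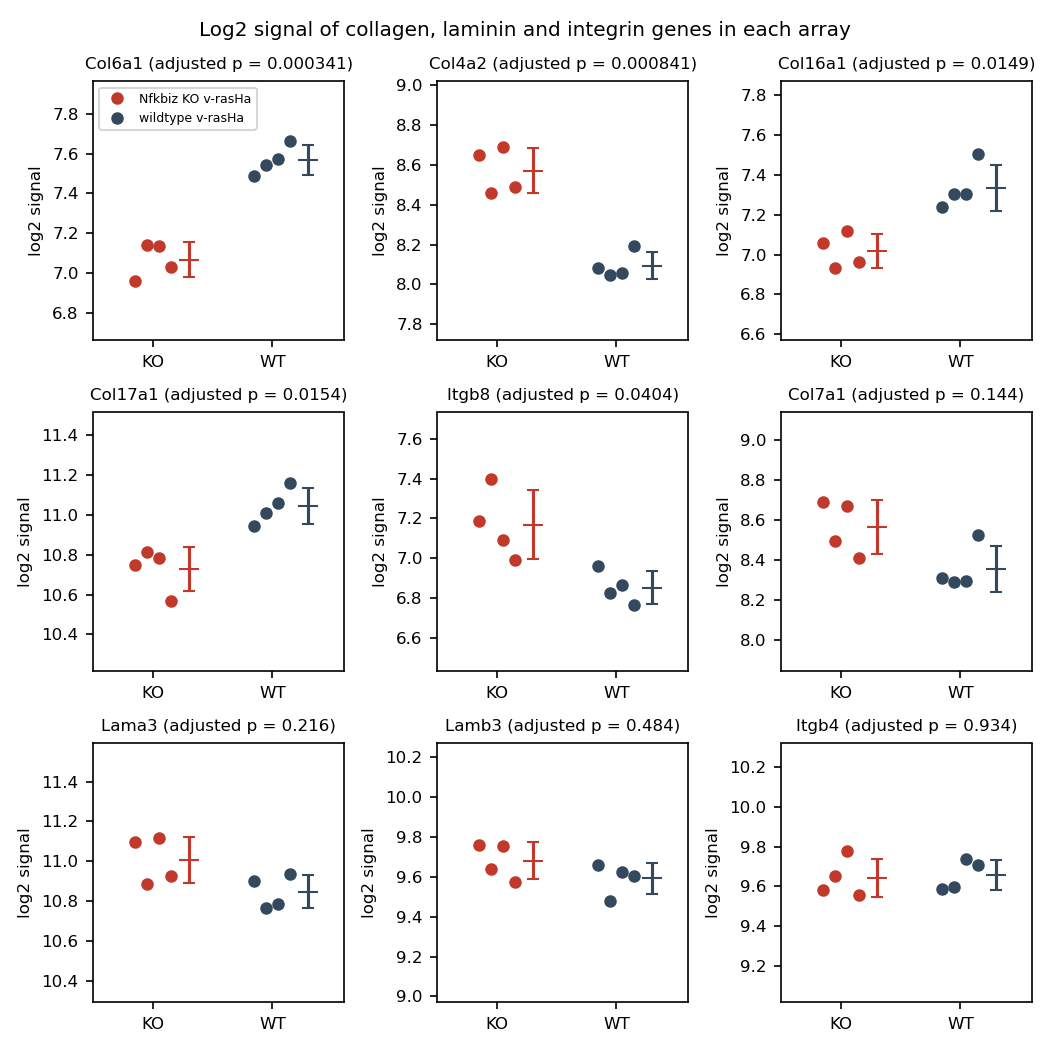
Log2 signal in each of the 8 arrays for the 5 genes that passed the test and for Col7a1, Lama3, Lamb3 and Itgb4, with Nfkbiz KO arrays left and wildtype arrays right. Each y axis spans the same number of log2 units, and bars give the mean and SD of 4 arrays. Groups are apart for the first 5 genes and overlap for the other 4.

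None of the 5 measured laminin chains passed the limma test, beside 8.9% of all genes, and 2 had an unadjusted p under 0.05, beside 1932 of the 9294 genes tested. With so few chains, this count does not set them apart from other genes. The median log2 fold change of the chains was 0.09, where it was -0.01 over all genes. Lama3 and Lamb3 encode the alpha and a beta chain of the laminin that hemidesmosomes bind. Lama3 had 11.10, 10.89, 11.12 and 10.93 in the Nfkbiz KO arrays, against 10.90, 10.77, 10.79 and 10.93 in the wildtype arrays. The ranges overlapped, and the log2 fold change was 0.16 ± 0.07 (SE; limma adjusted p = 0.216), with an interval of 0.01 to 0.31. A second Lama3 probe set lay at 3.83 ± 0.04 in Nfkbiz KO arrays and 3.79 ± 0.08 in wildtype arrays (SD, n = 4 each), below the array medians, and had a log2 fold change of 0.03. Lamb3 had 9.76, 9.64, 9.75 and 9.57 in the Nfkbiz KO arrays, against 9.66, 9.48, 9.62 and 9.61 in the wildtype arrays. Its log2 fold change was 0.09 with an interval of -0.05 to 0.23, so a rise above 0.23 lay outside the interval for this chain. Lamb2, a beta chain of other basement membranes, had 5.09, 5.23, 5.18 and 5.23 in the Nfkbiz KO arrays, against 4.60, 5.10, 4.82 and 5.09 in the wildtype arrays. Wildtype values were widely spread (SD 0.24), and the log2 fold change of 0.28 ± 0.10 (SE) did not pass (limma adjusted p = 0.138). Lama1 and Lama2 had log2 fold changes of -0.05 and -0.02 at mean signals of 3.32 and 4.89.

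Within the Nfkbiz KO group, Col4a2, Col7a1, Lama3 and Lamb3 were each higher in replicates 1 and 3 than in replicates 2 and 4, a description chosen after the values were seen. Within the wildtype group, replicate 4 gave the highest value of Col4a2, Col6a1, Col7a1, Col16a1 and Col17a1. The reason for these orders was not tested.

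Of 11 integrin chains, Itgb8 rose and 10 did not pass, a share of 9.09% beside 8.9% of all genes. Itgb8 encodes a beta chain that pairs with the alpha V chain and can activate latent TGF-beta. Its log2 signals were 7.19, 7.40, 7.09 and 6.99 in the Nfkbiz KO arrays, against 6.96, 6.82, 6.86 and 6.76 in the wildtype arrays. The groups were apart by a narrow gap, and Nfkbiz KO replicate 2 stood highest. The log2 fold change was 0.32 ± 0.08 (SE; limma adjusted p = 0.0404), a 1.25-fold difference. The call was lost after quantile normalization (adjusted p = 0.0737). It was also lost without Nfkbiz KO replicate 1, 2 or 3 or wildtype replicate 2, 3 or 4, with adjusted p of 0.0605 to 0.108 and log2 fold changes of 0.24 to 0.34, and it stayed without Nfkbiz KO replicate 4 or wildtype replicate 1.

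The collagen-binding integrin gene Itga2, the alpha chain typical of keratinocytes for this task, had 6.52, 6.16, 6.19 and 6.31 in the Nfkbiz KO arrays, against 6.51, 6.35, 6.45 and 6.56 in the wildtype arrays. The groups overlapped through Nfkbiz KO replicate 1, and the log2 fold change was -0.17 ± 0.08 (SE; limma adjusted p = 0.269). Itgb7, a beta chain known from lymphocytes, had 5.35, 5.27, 5.23 and 5.29 in the Nfkbiz KO arrays, against 5.41, 5.45, 5.67 and 5.36 in the wildtype arrays. Its groups were apart by a very small gap, and the log2 fold change of -0.19 ± 0.07 (SE) did not pass (limma adjusted p = 0.149). Itga2b, the platelet integrin gene, had a log2 fold change of 0.10 at a mean signal of 6.34. The leukocyte integrin genes Itgam, Itgax and Itgb2 had mean signals of 2.90, 4.46 and 3.78, below the array medians, and log2 fold changes between -0.05 and -0.01. The other alpha chains, Itga1, Itga7 and Itga10, lay at means of 3.23 to 4.10 with log2 fold changes of -0.10 to 0.09. Itga3, Itga5, Itgav, Itgb1 and Itgb6 were not analysed here.

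The remaining 9 collagens lay at mean signals of 2.23 to 4.67, near or below the array medians, and none passed in limma. They were Col2a1, Col11a2 and Col24a1 of the fibrillar group, Col8a2, Col10a1 and Col15a1 of the network and basement membrane group, the fibril-associated Col9a2, the collagen VI chain gene Col6a5 and the transmembrane Col13a1. Their log2 fold changes ran from -0.06 in Col9a2 to 0.12 in Col10a1. Col10a1 had 4.12, 4.30, 4.08 and 4.12 in the Nfkbiz KO arrays, against 4.05, 4.00, 4.08 and 4.04 in the wildtype arrays. Those groups were just apart, but the difference did not pass (limma adjusted p = 0.304). The fibrillar genes most abundant in dermis, Col1a1, Col1a2 and Col3a1, were not analysed here. Of the 3 genes that encode no chain, Itgb1bp2, a muscle protein gene, had the largest log2 fold change that did not pass among them, 0.20 ± 0.12 (SE; limma adjusted p = 0.402). Itgb1bp1, whose protein binds the beta1 tail of integrins, lay at 7.47 in both groups.

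**Figure D4:**
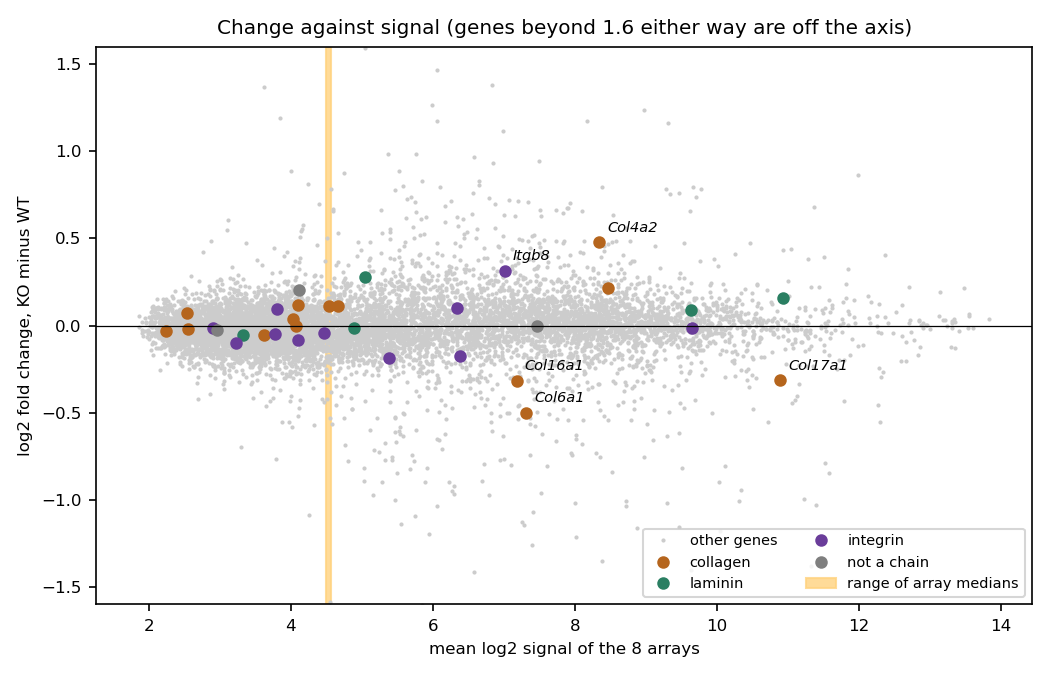
Log2 fold change (Nfkbiz KO minus wildtype) against the mean log2 signal of the 8 arrays. Grey dots are the other genes tested, coloured points the 33 members, and the orange band the range of array medians (4.49 to 4.57). The 5 named genes lie right of a signal of 5, and the 19 members with a mean under 5 lie between -0.10 and 0.20.

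Sequence upstream of the transcription start is shown for the 5 genes that passed, to set the promoters of genes that rose beside those of genes that fell. It comes from RefSeq on the build GRCm38.p6, 5′ to 3′ on the strand of the gene, where 26 of the 33 members had an entry. Capitals mark matches on either strand to 5 motifs: AP-1 (TGANTCA), the NF-kB consensus, the GC box (GGGCGG), the CCAAT box (CCAAT) and the TATA box (TATAAA). For all but Col4a2 the stretch is the last 130 bases before the start. For Col4a2 it is the 30 bases from 50 to 21 before the start. Col4a1 starts 21 bases downstream of the Col4a2 start, on the other strand, and is transcribed across this stretch. Genes that fell come first, at chr10:76726045-76726174 (minus strand), chr4:130047710-130047839 (plus) and chr19:47692043-47692172 (minus), then genes that rose, at chr8:11312755-11312784 (plus) and chr12:119238277-119238406 (minus).
Col6a1: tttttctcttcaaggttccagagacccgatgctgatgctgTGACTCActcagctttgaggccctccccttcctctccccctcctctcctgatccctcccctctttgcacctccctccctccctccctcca
Col16a1: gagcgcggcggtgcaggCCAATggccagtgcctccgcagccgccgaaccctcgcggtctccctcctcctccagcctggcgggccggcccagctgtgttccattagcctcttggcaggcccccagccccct
Col17a1: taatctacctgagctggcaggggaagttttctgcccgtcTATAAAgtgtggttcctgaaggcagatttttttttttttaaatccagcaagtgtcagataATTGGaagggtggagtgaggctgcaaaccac
Col4a2: cgCCGCCCgaggagctccCCAATttgttgg
Itgb8: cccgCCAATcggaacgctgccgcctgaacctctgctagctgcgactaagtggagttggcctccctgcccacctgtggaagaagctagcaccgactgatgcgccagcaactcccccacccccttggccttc

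In the full promoter windows, which reach further upstream and into the first bases of the transcript, Col6a1 held an AP-1 match beginning 90 bases before the start, a motif found in 7.81% of all 32851 promoters. Col17a1 held TATA boxes 140 and 91 bases before the start, as 13.6% of promoters do at least once. A CCAAT box, present in 37.4% of all promoters, was found in 4 of the 5, the exception being Col6a1. GC boxes, present in 35.7%, were found in Col4a2 and Col16a1. None of the 5 windows matched the NF-kB consensus, which 4.51% of all promoters hold, and among the other members it was found in Lamb3 and Col9a2, neither of which passed the expression test. No match in a window says only that these letters are not there, and a match is not a measured binding site. The motif matches do not overlap each other in the stretches shown.

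Several genes whose proteins process collagen chains fell. Of 14 measured members of a collagen synthesis and cross-linking list, 5 fell (35.7%, beside 4.43% of all genes), none rose and 9 did not pass in limma. Of the 14, 11 had a mean log2 signal of 5 or over. Among these 45.5% passed, beside 16.0% of all genes at that level. This list too was drawn up with earlier results of these data known, so its share only describes the genes on it. Of all 14, 7 had an unadjusted p under 0.05, the 5 that fell among them, beside 1932 of the 9294 genes tested. The median log2 fold change was -0.08. P3h2, the gene of a collagen prolyl hydroxylase, had 6.09, 6.21, 6.41 and 6.24 in the Nfkbiz KO arrays, against 7.14, 7.09, 7.14 and 7.16 in the wildtype arrays. The wildtype arrays were tightly grouped and far above every Nfkbiz KO array, a log2 fold change of -0.90 ± 0.07 (SE; limma adjusted p = 8.25e-06). P4ha2, an alpha subunit gene of the hydroxylase that stabilises the collagen triple helix, fell by 0.54 ± 0.06 (SE). Sec24d, a coat protein gene of the vesicles that carry procollagen, fell by 0.24 ± 0.05, Crtap, a partner of prolyl hydroxylation, by 0.19 ± 0.05, and P4hb, the beta subunit gene, named after its values were seen, by 0.17 ± 0.05. The replicate block ended the last 3 calls, with adjusted p of 0.0532 for Sec24d, 0.0926 for Crtap and 0.110 for P4hb. Centring on array medians ended those of Crtap (0.121) and P4hb (0.120), and quantile normalization that of P4hb (0.0890). P4hb also lost its call whichever array was left out (adjusted p 0.0550 to 0.115), Crtap whichever was left out except Nfkbiz KO replicate 3 (up to 0.114), and Sec24d without Nfkbiz KO replicate 2 (0.0634) or wildtype replicate 3 (0.0511). Plod3, a lysyl hydroxylase gene, and the cross-linking enzyme gene Loxl3 had log2 fold changes of -0.03 and -0.01. Sec23a, on the same list, was higher in Nfkbiz KO arrays, by 0.14 ± 0.05 (SE), and did not pass (limma adjusted p = 0.126). Its groups did not overlap, as for 15.9% of all genes. Most fibroblast markers that passed were lower in these arrays, while Postn rose and others did not pass, as given above. The part of fibroblasts in these falls was not tested.

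Genes of some other proteins that integrins bind rose. Of 11 measured non-collagen ligands, 3 rose (beside 4.47% of all genes), none fell and 8 did not pass in limma. Among the 5 with a mean log2 signal of 5 or over 3 passed, beside 16.0% of all genes at that level. This list was drawn up with earlier results of these data known, so its share only describes the genes on it. Of all 11, 5 had an unadjusted p under 0.05, the 3 that rose among them, beside 1932 of the 9294 genes tested. The median log2 fold change was 0.06. With an intensity trend and robust variance 4 passed as higher and 1 as lower, where 12.2% of all genes passed in either direction. Postn, a matricellular ligand also in the fibroblast list, had 6.90, 6.74, 6.85 and 6.65 in the Nfkbiz KO arrays, against 5.48, 5.25, 5.10 and 5.44 in the wildtype arrays. Ccn2, the connective tissue growth factor gene, had 12.45, 12.46, 12.46 and 12.31 in the Nfkbiz KO arrays, against 11.51, 11.57, 11.56 and 11.58 in the wildtype arrays. Both genes were far apart between genotypes, with log2 fold changes of 1.47 ± 0.09 and 0.87 ± 0.05 (SE). Icam1, a ligand of leukocyte integrins, rose by 0.56 ± 0.06. Mfge8, which binds alpha V integrins, had a log2 fold change of -0.14 (limma adjusted p = 0.201).

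Genes of proteins that accompany the basement membrane or carry integrin signals passed at shares of 11.1% and 14.3%, beside 8.9% of all genes. Of 9 basement membrane and hemidesmosome partners, Ecm1, the extracellular matrix protein gene of skin, rose by 0.24 ± 0.06 (SE; limma adjusted p = 0.0340) and 8 did not pass. Leaving out an array took it past the threshold (adjusted p up to 0.0963), except for wildtype replicate 3. Pxdn, the gene of the enzyme that cross-links collagen IV, and Bcam, a laminin receptor gene, had log2 fold changes of 0.10 and 0.05. Of 7 integrin adaptors and signalling genes, Flna, the filamin that ties integrin tails to actin, rose and 6 did not pass. Flna had 10.04, 10.05, 10.02 and 9.95 in the Nfkbiz KO arrays, against 9.80, 9.74, 9.78 and 9.81 in the wildtype arrays. The groups did not overlap, and the log2 fold change was 0.23 ± 0.05 (SE; limma adjusted p = 0.0120). Ilk, the integrin-linked kinase gene, had a log2 fold change of 0.10 with an interval of -0.04 to 0.23.

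**Figure D5:**
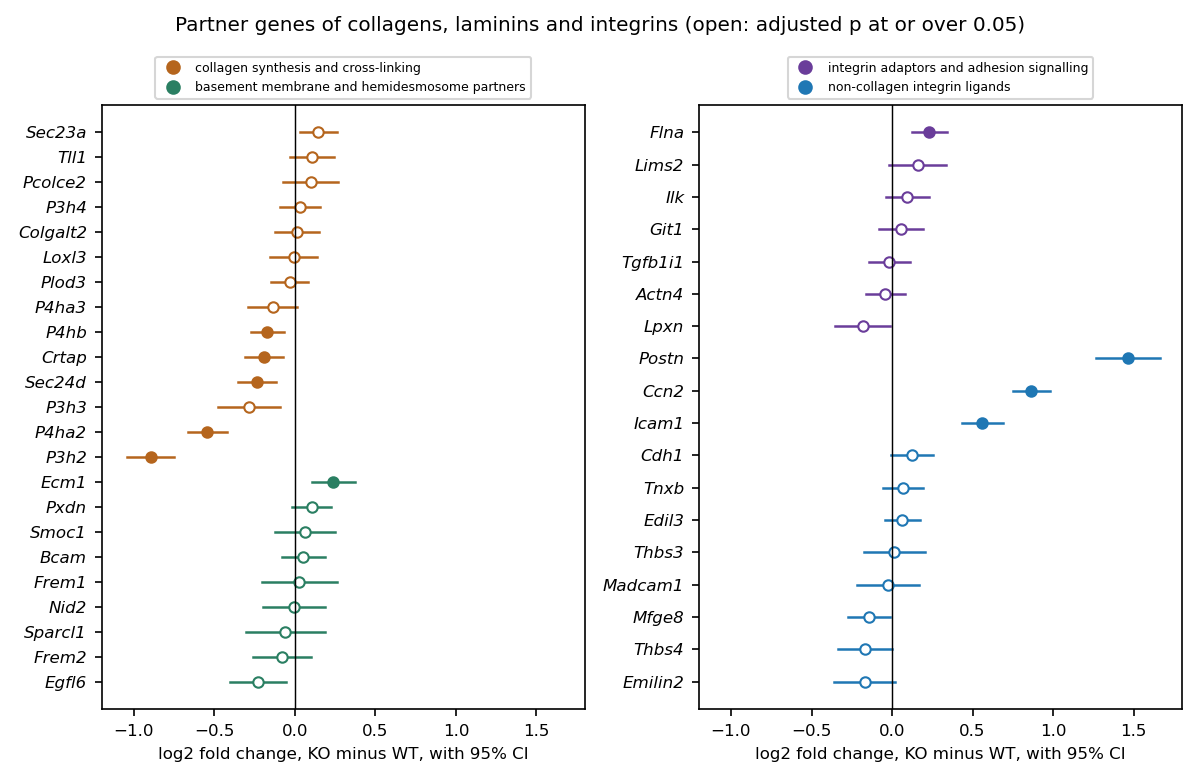
Log2 fold change (Nfkbiz KO minus wildtype, x axis) with 95% confidence intervals for the partner genes measured in 4 lists. Filled points passed the test: 5 synthesis genes left of 0, and right of 0 Ecm1, Flna, Postn, Ccn2 and Icam1.

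Other cell types were followed through markers in the same arrays. Of 9 leukocyte markers, 1 fell (11.1%, beside 4.43% of all genes) and 8 did not pass. An unadjusted p under 0.05 was found for 4 of the 9, beside 1932 of the 9294 genes tested. Their summed linear signals were 251 to 267 in Nfkbiz KO arrays and 271 to 304 in wildtype arrays. Of the 9, 6 had a mean log2 signal under 5. Cd68 weighs most in the sum, with log2 means of 6.295 in Nfkbiz KO and 6.533 in wildtype arrays. It did not pass (limma adjusted p = 0.131). The leukocyte gene that fell was Tyrobp, with a mean of 4.18 in Nfkbiz KO arrays and 4.43 in wildtype arrays, below the array medians. Its call (limma adjusted p = 0.0367) did not hold when an array was left out (adjusted p up to 0.0925), except for wildtype replicate 4. It was also lost after quantile normalization (0.0681), with centring (0.0761) and with an intensity trend and robust variance (0.0573). Of 3 melanocyte markers, Pmel fell by 0.28 ± 0.06 (SE) and 2 did not pass, where 4.43% of all genes fell. Those 2, Dct and Mlana, had log2 fold changes of -0.18 and -0.20. All 3 melanocyte markers had an unadjusted p under 0.05, beside 1932 of the 9294 genes tested. Their summed signals were 2183 to 2689 in Nfkbiz KO arrays and 2816 to 2947 in wildtype arrays. None of 8 endothelial or 2 smooth muscle markers passed in limma, beside 8.9% of all genes. Of these, 1 and 0 had an unadjusted p under 0.05, beside 1932 of the 9294 genes tested. The keratinocyte markers summed to 33454 to 35671 in Nfkbiz KO arrays and 35338 to 36660 in wildtype arrays.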

How the data were processed

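RNA of 8 cultures was extracted with Trizol and a Qiagen column and biotin-labelled, per the labels' protocols. The values deposited by the authors cover 11373 probe sets, lie between 1.57 and 13.9 and were taken as log2 signals already summarised by the authors. How they were summarised and normalized, and any scan batch, is not given in the sources used here. Of the probe sets, 9374 had 1 gene symbol in the platform's annotation, 479 several and 1520 none. For a gene with several probe sets the one of highest mean signal stood for it, leaving 9294 genes to test, and all 33 members had an entry in the RefSeq gene table. For 8 members, among them Col16a1, Col17a1, Lama3, Lamb3 and Itgb4, the probe set can bind several transcripts of the gene. Genotypes were compared in R 4.3.3 by a linear model with moderated variance (limma 3.58.1) and no covariate, Benjamini-Hochberg adjusted over all genes, threshold 0.05, after the same function was tested on simulated data. Standard errors and 95% intervals are from this fit, and n = 4 arrays limits the precision. Members, lists and tests were chosen with earlier results of these data known. Named genes are all members that passed, preset epidermal adhesion genes, the members of largest change that did not pass, and up to 4 called genes per partner list. P4hb, Tyrobp, Pmel and the partner genes named without a call were chosen after their values were seen, as were members named beyond this rule. The markers Dct, Mlana, S100a4, Cd68, Krt1, Krt10 and Krt15 were also named after their values were seen. P-values set the difference between genotypes against the spread between replicate arrays, and the labels do not say how many animals that spread covers. The difference between arrays of a genotype had an SD of 0.157 to 0.175 over probe sets, so no array was a copy of another. A collagen gene is not reported here.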

Additional observations from a re-analysis of the deposited data

Results flagged for a closer look

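In 66 groups of 4 arrays (33 genes in 2 genotypes), 3 groups held an array whose gap to its nearest neighbour took up most of the range, and chance alone gives about 1 in 20 such groups. All 3 were wildtype replicate 4. In Col7a1 it lay at 8.52, with the other wildtype arrays at 8.29 to 8.31. In Col9a2 it lay at 3.76, with the others at 3.59 to 3.61, and in Itga2b at 6.24, with the others at 6.30 to 6.31. Col7a1 did not pass the test without this array either.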

How the results depend on the processing

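Col4a2, Col6a1 and Col16a1 kept their direction and their call in every alternative run. These were a replicate block, quantile normalization, arrays centred on their medians, a filter on the weakest 25% of genes or on a log2 signal of 5, the mean of all probe sets, testing every probe set, an intensity trend with robust variance, and leaving out each array. Their adjusted p reached at most 0.00536, 0.00207 and 0.0488. Col17a1 lost its call only with the replicate block. Members called were 4 with the block, 4 after quantile normalization, 6 with the trend, 4 to 5 with an array left out and 5 in the other alternatives, and no laminin was called in any. The integrin count was 0 after quantile normalization and 0 to 1 with an array left out. Synthesis genes numbered 2 with the block, 3 with centring and 2 to 4 with an array left out. They numbered 7 (6 lower and 1 higher) both with the trend and robust variance and without genes under a log2 signal of 5. Calls over all genes shifted as well. They made up 12.2% of the genes tested with the trend and 23.9% without genes under that signal, beside 8.9% in the main run. The share was 7.09% with the block and 8.56% with centring. Ligands numbered 5 with the trend (4 higher and 1 lower), against 3 to 3 with an array left out. Basement membrane partners numbered 0 to 1 with an array left out. The cause of these shifts was not tested. Replicate numbers showed no clear pairing of the samples. Correlations of same-numbered deviations were -0.05 to 0.09, and 2 of 8 samples correlated best with their own number. With so few arrays these values cannot exclude a shared preparation, and the labels do not say whether there was one. The block gave 659 calls over all genes in place of 827. Signals near the array medians limit what can be said of the 19 weakest members.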
